A study of Mus musculus with 4 samples.

Results

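Hemoglobin, heme and iron genes were described here in spatial transcriptomes of infarcted mouse hearts. The 10 genes were taken by symbol from the 32285 genes of the count tables. They were the adult globin genes Hba-a1, Hba-a2, Hbb-bs and Hbb-bt, the heme-degrading enzyme Hmox1 and the flavin reductase Blvrb. The others were the ferritin subunits Fth1 and Ftl1, the iron exporter Slc40a1 and the iron importer Tfrc. All 10 had at least 1000 unique molecular identifiers (UMIs) over all spots, a minimum that 5157 genes met. Each of the 4 samples was a cryosection of 10 µm from the heart of 1 adult ICR mouse, 12 weeks old per the labels and female per the study's methods, whose LAD (left anterior descending) coronary artery had been tied off for good. The hearts were taken on day 1, 4, 7 or 14 after ligation by the labels and the methods, although a passage of the study's text names day 2 for the earliest section, which is called day 1 here. No uninjured or sham-operated section was analysed here. With 1 mouse and 1 section per day, a difference between days cannot be told apart from a difference between mice or sections, and no test between days was possible. RNA was read with Visium, an array of barcoded spots under the section, and a spot is a small region that holds several cells of different types.

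As background, hemoglobin is a tetramer of alpha and beta globin chains, each carrying a heme with an iron atom at its centre. Mature red cells have no nucleus but young ones (reticulocytes) still carry globin mRNA, so globin transcripts in an organ usually mark blood held in its vessels or spilled into the tissue. Red cells that die in tissue are taken up mainly by macrophages, where heme oxygenase opens the heme ring and releases iron, which ferritin stores or ferroportin exports. In cells that need iron, transferrin receptor takes up iron bound to transferrin. Ferritin, ferroportin and transferrin receptor mRNAs carry iron-responsive elements, stem-loops to which iron regulatory proteins bind when iron is scarce. An element in the 5′ untranslated region (UTR) then blocks translation, and elements in the 3′ UTR protect the mRNA from decay.

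The iron-responsive elements of these genes are shown because they place storage, export and import in a common control scheme. Capitals mark the bulged C and the loop of 6 bases, found as CNNNNNCAGTGN flanked by 5 paired bases, on the transcribed strand of GENCODE transcripts on GRCm38. The storage and export genes Fth1 (chr19:9982732-9982761, plus strand), Ftl1 (chr7:45459778-45459807, minus strand) and Slc40a1 (chr1:45925464-45925493, minus strand) each had a site in the 5′ UTR, and the import gene Tfrc had 4 sites in its 3′ UTR (the first at chr16:32631219-32631248 and the last at chr16:32631710-32631739, plus strand).
Fth1: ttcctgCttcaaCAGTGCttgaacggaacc
Ftl1: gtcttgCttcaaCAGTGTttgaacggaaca
Slc40a1: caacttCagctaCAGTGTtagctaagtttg
Tfrc, first site: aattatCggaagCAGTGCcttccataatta
Tfrc, last site: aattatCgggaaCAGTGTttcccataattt
The same search found a site in the 5′ UTR of 19 of 19180 genes (0.0991%) and in the 3′ UTR of 104 of 20410 genes (0.510%). A match describes the letters and was not tested as a working element. Levels of mRNA, which were measured here, do not report the translation that a site in the 5′ UTR acts on.

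The 4 globin genes form 2 pairs of near-identical copies, and the sequences where the copies of a pair differ are shown because only reads over such bases can be given to 1 copy. Positions were counted from the first base of the start codon. The alpha genes Hba-a1 (chr11:32283511-32284465) and Hba-a2 (chr11:32296489-32297298, both on the plus strand) differed at 1 of 426 coding bases, C381T, and at none of 74 aligned 3′ UTR bases. The differing base is in capitals within 30 coding bases at chr11:32284328-32284357 and chr11:32297145-32297174.
Hba-a1: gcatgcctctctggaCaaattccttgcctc
Hba-a2: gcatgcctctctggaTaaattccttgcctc
The beta genes Hbb-bs (chr7:103826534-103828096) and Hbb-bt (chr7:103812524-103813996, both on the minus strand) also differed at 1 coding base of 441, C417T, but only 93 of 129 aligned 3′ UTR bases were identical. In the 30 bases of 3′ UTR at chr7:103826634-103826663 and chr7:103812626-103812655, the 7 differing bases are in capitals.
Hbb-bs: CcccctttCctgctCttgCctGtgAacaaT
Hbb-bt: GcccctttTctgctAttgTctAtgCacaaA
The division of UMIs within the alpha pair is therefore uncertain, and that within the beta pair less so. These bases are those of the reference build, and whether the ICR mice carry the same ones was not checked. The promoters differ in the same way: the RefSeq windows upstream of Hba-a1 and Hba-a2 were identical over 247 aligned bases, while those of Hbb-bs and Hbb-bt shared 127 of 249. Windows were laid side by side at the best shift without gaps, so an inserted or missing base would lower the count. The 120 bases before the start of Hba-a2 (chr11:32296372-32296491, GRCm38.p6) stand for both alpha genes, with matches to CCAAT and to CACCC and TATAA in capitals.
Hba-a2 promoter: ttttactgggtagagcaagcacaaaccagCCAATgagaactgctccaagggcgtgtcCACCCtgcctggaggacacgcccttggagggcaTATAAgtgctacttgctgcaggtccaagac
Over 32851 promoter windows of 250 bases, searched on both strands, 33.8% held CCAAT, 52.0% CACCC and 22.8% TATAA, and all 4 adult globin windows held all of these motifs.

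The sections held 2026 to 2741 spots and 10983077 to 17315715 UMIs. Day 14 had 444 spots under 1000 UMIs and the other sections 17 to 66. Of 3178 distinct barcodes, 2538 occurred in more than 1 section, since a Visium barcode names a position on the slide and not a cell. Values are UMI counts per 1000000 UMIs of the spots named (CPM), with exact Poisson or binomial 95% intervals that cover counting error only. In such sums, fewer cells of a type and less RNA per cell cannot be told apart.

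Globin transcripts were present in most spots of every section but were concentrated in a minority of them. The Hba-/Hbb- genes number 8, of which Hba-x, Hbb-bh1, Hbb-bh2 and Hbb-y, genes of embryonic globin chains, had no UMI in any section. Hba-a1, which encodes an adult alpha chain, stood at 1486, 1395, 2050 and 1809 CPM on days 1, 4, 7 and 14. Hbb-bs, which encodes an adult beta chain, stood at 2216, 1882, 3452 and 2311, and Hbb-bt, its neighbour in the beta cluster, at 281, 230, 348 and 310. All 3 were lowest in the day 4 section and highest in the day 7 section, by 1.47-fold for Hba-a1, 1.83-fold for Hbb-bs and 1.51-fold for Hbb-bt.

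Hba-a2 departed from this order. It stood at 315, 96.1, 240 and 112 CPM on days 1, 4, 7 and 14, so that days 1 and 7 were high and days 4 and 14 low, with 3.28-fold (3.09 to 3.48) between day 1 and day 4. As a share of the UMIs of both alpha genes, Hba-a2 made up 17.5, 6.44, 10.5 and 5.83% in the same order of days. The 95% interval was 17.00 to 17.99 on day 1, and none of the 4 intervals overlapped. Hbb-bt made up 11.3, 10.9, 9.16 and 11.8% of the UMIs of both beta genes, a much narrower range. The alpha genes together made up 41.9, 41.4, 37.6 and 42.3% of the globin UMIs.

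**Figure D1:**
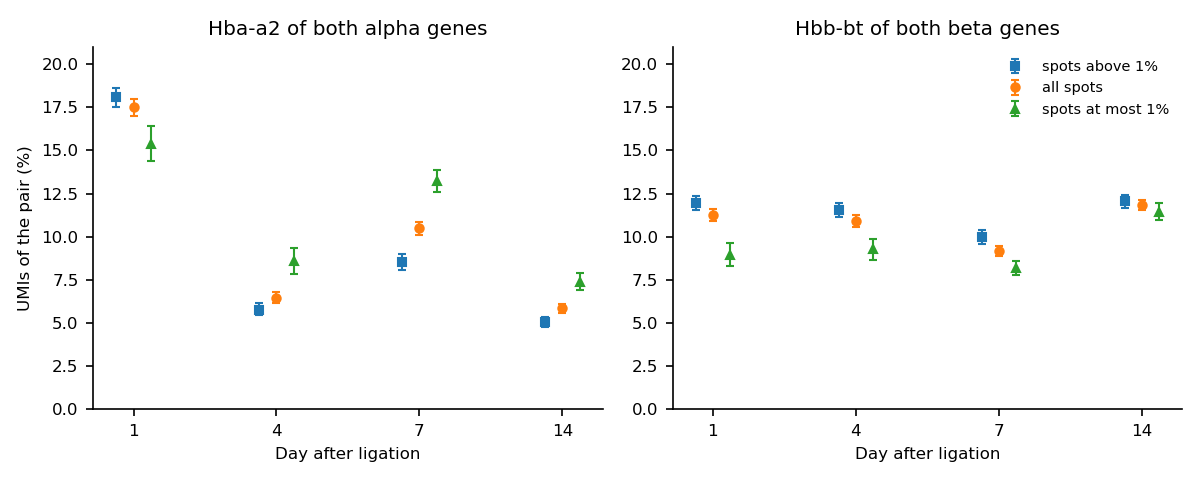
Share (%) of Hba-a2 among the UMIs of both alpha globin genes (left) and of Hbb-bt among those of both beta globin genes (right), against the day after ligation, in all spots, in spots above 1% hemoglobin and in spots at most 1%; bars are exact binomial 95% intervals. The alpha split runs from 5.83 to 17.5% between sections over all spots, and the beta split from 9.16 to 11.8%.

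The split also differed between spots rich and poor in globin. In spots with more than 1% of their UMIs from Hba-/Hbb- genes, the limit that the study's methods give for removing blood-rich spots, Hba-a2 was 18.1, 5.77, 8.52 and 5.06% of the alpha UMIs on days 1, 4, 7 and 14. In spots at most 1% it was 15.4, 8.58, 13.2 and 7.38%, lower than in the rich spots on day 1 and higher on days 4, 7 and 14, with no overlap of the counting intervals. Hbb-bt was 12.0, 11.6, 9.97 and 12.0% of the beta UMIs in the rich spots and 8.95, 9.26, 8.17 and 11.5% in the others, lower there in all 4 sections with intervals that overlapped on day 14. Spots of a section share 1 mouse and 1 library, so these intervals do not cover differences between mice.

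Globin-rich spots were counted in every section. Spots above 1% numbered 261 of 2151 on day 1 (12.1%, 95% interval 10.8 to 13.6), 347 of 2026 on day 4 (17.1%), 336 of 2184 on day 7 (15.4%) and 655 of 2741 on day 14 (23.9%). They held 77.8, 73.7, 56.1 and 63.8% of the section's globin UMIs, and the richest spot of each section had 29.01, 14.1, 21.1 and 44.9% of its UMIs from globins. Day 7 differed in shape from the others: its median spot was at 0.285%, against 0.0627, 0.0619 and 0.169% on days 1, 4 and 14, while its spot at the 99th percentile, at 5.69%, was below theirs, at 18.6, 8.35 and 19.97%.

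The richest spots were often shallow. The median depth of spots above and at most 1% was 2308 and 6410 UMIs on day 1, 2646 and 8799 on day 4, and 1164 and 8310.5 on day 14, but 5108.5 and 5188 on day 7. On day 14, 289 of the 444 spots under 1000 UMIs were above 1%. The part of depth in the count of such spots was not tested.

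**Figure D2:**
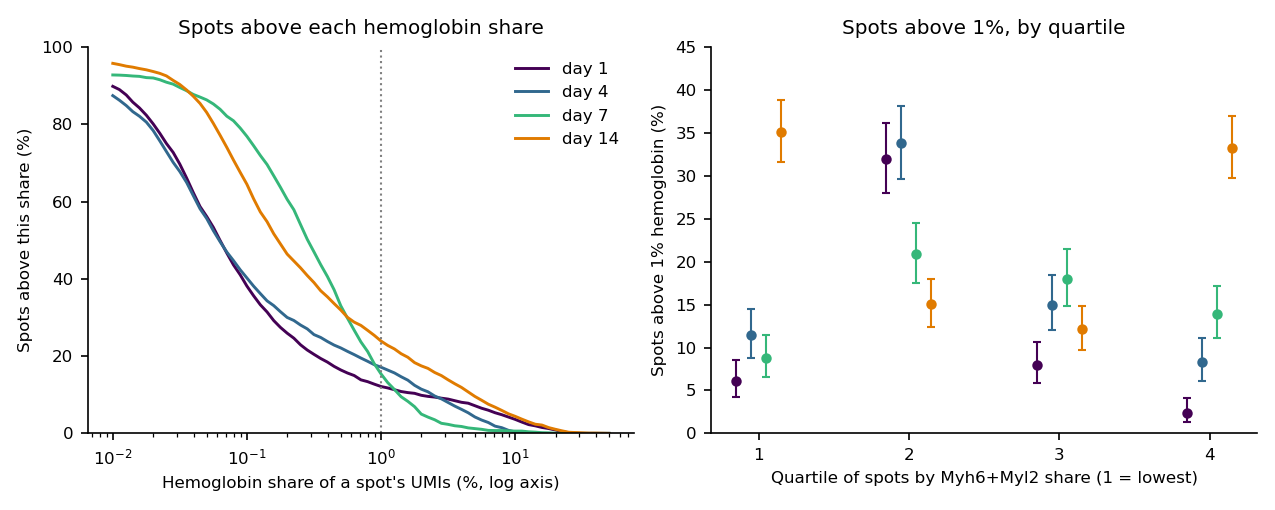
Left, share of spots (%) above each value of the per-spot hemoglobin share (% of UMIs, log axis) in the 4 sections, with the limit of 1% dotted; right, share of spots above 1% (%) in each quartile of the Myh6+Myl2 share, with exact binomial 95% intervals. The day 7 curve lies above the others at middle shares and below them at shares of a few percent, and day 14 has its globin-rich spots in the lowest (35.1%) and highest (33.3%) quartiles.

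The spots of each section were ranked on the share of their UMIs from Myh6 and Myl2, genes of cardiomyocyte myosin, and cut into quartiles. Quartiles are classes of this share and not positions in the tissue. The total of a spot includes its globin UMIs, so a high globin share by itself lowers the rank. These 2 genes held, in the lowest quartile, 0.798, 0.302, 0.288 and 1.304% of UMIs on days 1, 4, 7 and 14, and in the highest quartile 2.79, 2.53, 2.80 and 2.61%. The day 14 section thus had the weakest contrast between quartiles, and on day 7 the lowest quartile held 129 spots, and the second quartile 3, that carried 10 or more UMIs from a list of 10 genes of fast skeletal muscle. Quartiles were compared with edgeR's quasi-likelihood test on 16 libraries (4 sections by 4 quartiles) with the section as a block and Benjamini-Hochberg adjustment over 5155 genes, so that the test asks for a difference shared by the days.

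Among the 10 genes, Hmox1, Ftl1 and Blvrb were higher in the lowest than in the highest quartile and none was lower. Cardiomyocyte-poor and cardiomyocyte-rich spots differ in most genes: 35.8% of all genes tested were called higher and 33.0% lower, so 3 of 10 is close to the share of genes at large. The median log2 difference was 0.49 over the 10 genes and 0.05 over all genes tested. The first of these lay between the values of Hba-a1 (0.487) and Hba-a2 (0.491), near-identical genes of which neither passed. In the second against the highest quartile, Hmox1 and Ftl1 were again higher, 2 of 10 against 4.03% of all genes, and in the third quartile none of the 10 passed. The 10 genes were chosen with earlier results of these data known, which the shares of all genes do not allow for.

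Depth and the share of mitochondrially encoded transcripts moved with the quartiles. The median spot of the lowest quartile held 6092, 6016, 3017 and 1264.5 UMIs on days 1, 4, 7 and 14, and that of the highest 5973, 9110.5, 5450.5 and 6907. Mitochondrially encoded genes made up 19.1, 9.78, 10.4 and 25.1% of UMIs in the lowest quartile and 27.4, 33.6, 27.2 and 32.0% in the highest. The calls of Hmox1, Ftl1 and Blvrb were also made without spots under 1000 UMIs, and the part of the mitochondrial share in them was not tested.

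**Figure D3:**
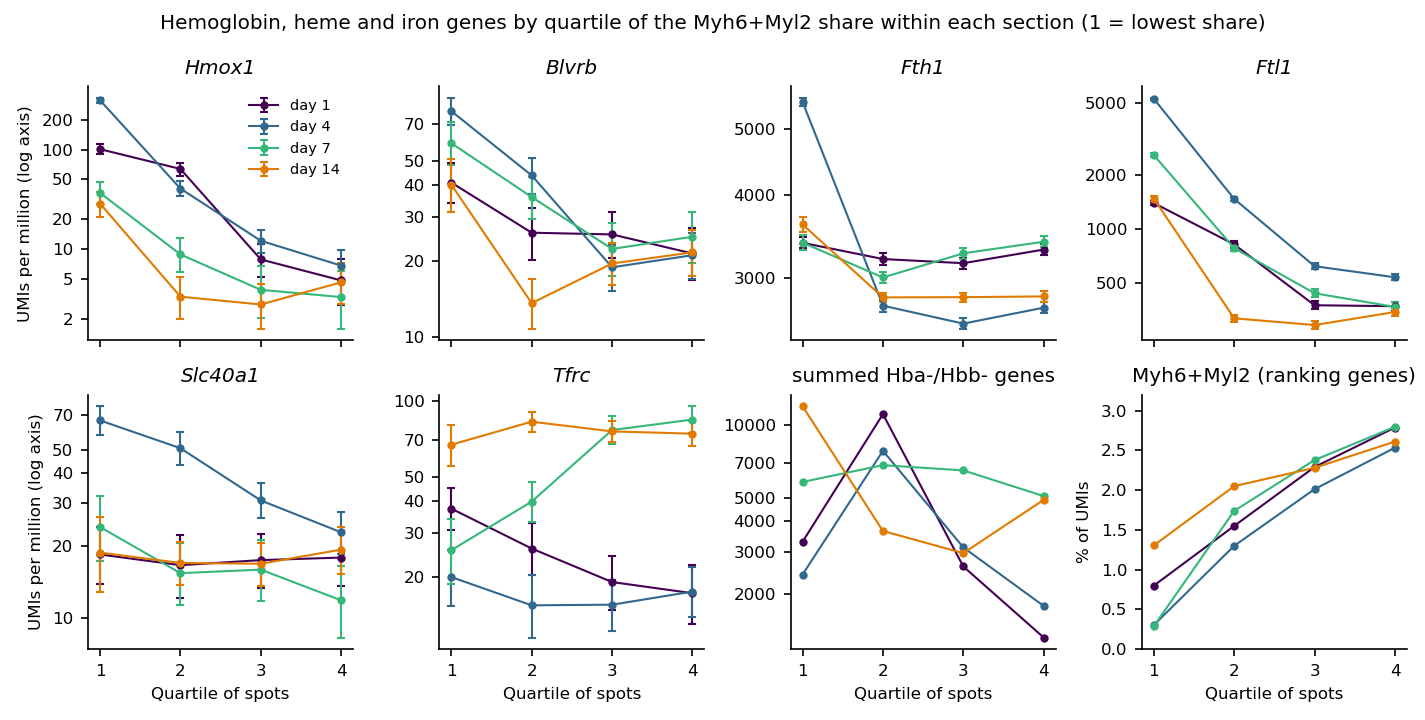
CPM (log axes) of the 6 genes that are not globins and of the summed globin genes in the 4 quartiles of spots ranked on the Myh6+Myl2 share, for each section, with exact Poisson 95% intervals where drawn; the last panel gives the share of the ranking genes (% of UMIs, linear axis). Hmox1 and Ftl1 lie highest in the lowest quartile on every day, while the summed globins peak in the second quartile on days 1, 4 and 7 and in the lowest quartile on day 14. A spot's globin UMIs count in its total and so lower its Myh6+Myl2 share.

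Hmox1 encodes heme oxygenase 1, the inducible enzyme that degrades heme to biliverdin, carbon monoxide and iron. It stood at 41.4, 77.5, 10.5 and 5.95 CPM of the whole section on days 1, 4, 7 and 14, a 13.03-fold range between day 4 and day 14 (10.6 to 16.1). In the lowest quartile it stood at 100.9, 313, 36.7 and 28.6 CPM, and in the highest quartile at 4.84, 6.81, 3.29 and 4.63. The log2 difference was 3.79 ± 0.49 (SE), adjusted p = 3.27e-05 in edgeR, higher in 4 of 4 sections by 6.18-fold on day 14 to 45.9-fold on day 4.

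The second quartile separated the days further. There Hmox1 was at 63.8 and 40.5 CPM on days 1 and 4 and at 8.83 and 3.32 on days 7 and 14, with a log2 difference from the highest quartile of 2.11 ± 0.51 and adjusted p = 0.0383 in edgeR. It was higher than in the highest quartile in 3 of 4 sections, day 14 being the exception. The levels in the highest quartile rest on 10 to 30 UMIs a section, and the range between days there was 2.07-fold.

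Blvrb encodes biliverdin reductase B, a flavin reductase of red cells and other tissues that acts downstream of heme breakdown. It stood at 28.2, 37.0, 32.9 and 20.2 CPM on days 1, 4, 7 and 14, a 1.84-fold range. It stood at 41.1, 79.0, 58.9 and 40.3 in the lowest quartile and in the highest at 21.5, 21.1, 25.0 and 21.7. The log2 difference was 0.79 ± 0.21, adjusted p = 0.00431 in edgeR, higher in 4 of 4 sections.

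Ftl1 encodes the light subunit of ferritin, the iron-storing shell, and Fth1 its heavy subunit, which oxidises the iron on entry. Ftl1 stood at 714, 1717, 864 and 431 CPM on days 1, 4, 7 and 14, a 3.98-fold range (3.88 to 4.08) with day 4 highest and day 14 lowest. In the lowest quartile it stood at 1392, 5259, 2564 and 1473, and in the highest at 373, 540, 370 and 347. The log2 difference was 2.06 ± 0.22, adjusted p = 1.03e-05 in edgeR, from 3.73-fold on day 1 to 9.74-fold on day 4.

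Ftl1 was also higher in the second quartile, at 821, 1466, 782 and 320 CPM on days 1, 4, 7 and 14, with a log2 difference of 0.79 ± 0.21 and adjusted p = 0.0479 in edgeR. As with Hmox1, day 14 was the section in which the second quartile did not exceed the highest.

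Fth1 behaved otherwise. It stood at 3265, 3237, 3254 and 2893 CPM on days 1, 4, 7 and 14, within 1.13-fold. Its values were, in the lowest quartile, 3390, 5495, 3392 and 3610 and, in the highest, 3312, 2714, 3402 and 2821, so that day 4 (2.02-fold) and day 14 (1.28-fold) were apart and days 1 and 7 level. The log2 difference shared by the sections was -0.09 ± 0.16, adjusted p = 0.627 in edgeR. Counted per section against library totals Fth1 was higher in 3 of 4 sections, and the fit with library totals in place of TMM factors, which moved the median of all genes to 0.48, gave 0.35 with adjusted p = 0.0867.

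Slc40a1 encodes ferroportin, the iron exporter. It stood at 17.6, 39.9, 15.9 and 17.6 CPM on days 1, 4, 7 and 14, with day 4 above the others and a 2.51-fold range (2.12 to 2.98). On day 4 it stood at 66.3, 50.8, 30.8 and 22.7 from the lowest to the highest quartile, a 2.92-fold difference (2.29 to 3.74). On day 7 the lowest and highest quartiles stood at 23.9 and 11.8, on day 1 at 18.4 and 17.8, and on day 14 at 18.7 and 19.2. The log2 difference shared by the sections was 0.22 ± 0.20, adjusted p = 0.342 in edgeR. Without the day 4 section it was -0.05, and with library totals it was 0.66 with adjusted p = 0.0225.

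Tfrc encodes transferrin receptor, which brings transferrin-bound iron into cells. Where Ftl1 and Slc40a1 were highest in the day 4 section, Tfrc was lowest there, at 24.4, 16.95, 60.3 and 77.0 CPM on days 1, 4, 7 and 14, a 4.54-fold range (3.98 to 5.20) with day 14 highest. In the lowest quartile it stood at 37.4, 19.98, 25.6 and 67.2, and in the highest at 17.2, 17.5, 84.5 and 74.3. The highest quartile was thus 4.91-fold apart between days 1 and 7, and the direction along the quartiles differed between sections: the lowest quartile was 2.17-fold higher than the highest on day 1 (1.56 to 3.04) and stood at 0.302 of it on day 7 (0.216 to 0.415). The log2 difference shared by the sections was -0.57 ± 0.35, adjusted p = 0.169 in edgeR. It was -1.03 with adjusted p = 0.0215 without the day 1 section and -0.04 without the day 7 section.

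**Figure D4:**
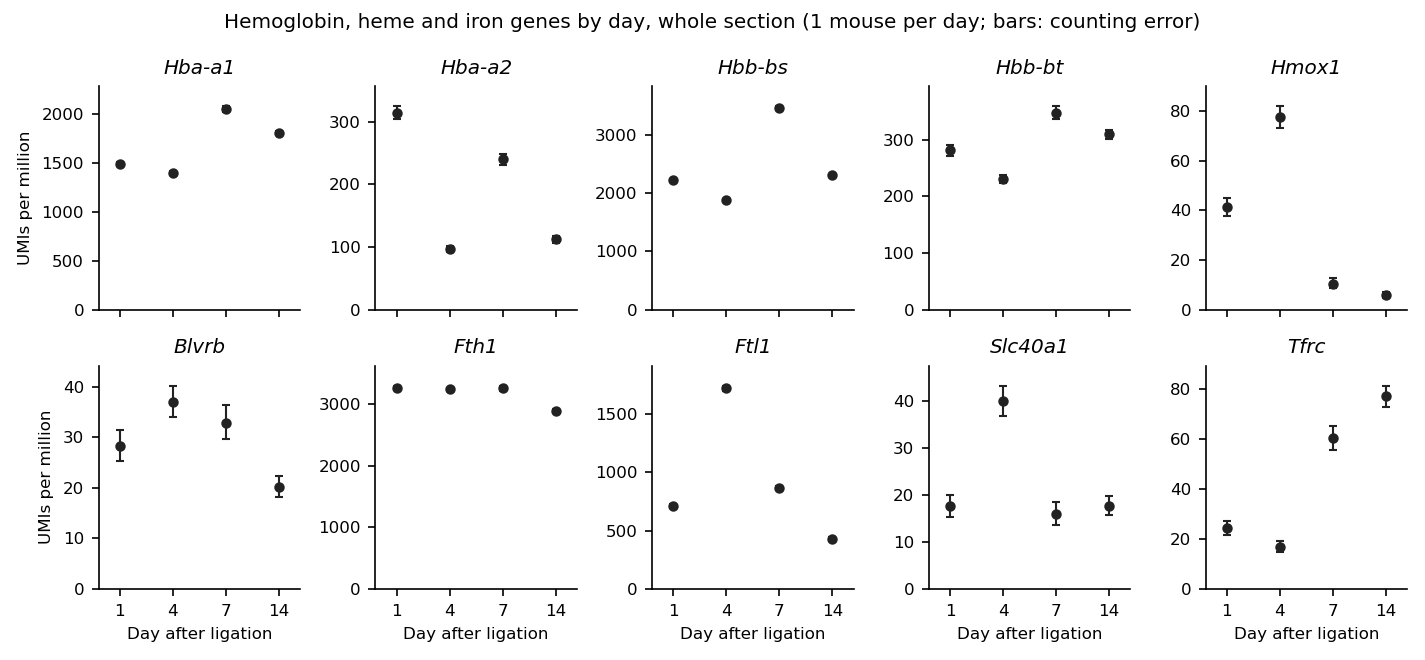
CPM of the whole section for each of the 10 genes against the day after ligation, 1 section from 1 mouse per day, with exact Poisson 95% intervals and axes from 0. Hmox1, Ftl1 and Slc40a1 are highest in the day 4 section, and Tfrc is highest in the day 14 section.

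Counted over the days, Hba-a2, Hmox1, Ftl1, Slc40a1 and Tfrc, 5 of 10, were past 2-fold between their highest and lowest section, against 15.8% of the 5157 genes of at least 1000 UMIs. With 1 mouse per day this count describes these sections only. Hba-a2 enters it through the division of UMIs within the alpha pair, which is uncertain, while Hba-a1 ranged 1.47-fold. Among spots at most 1% hemoglobin 8 of 10 were past 2-fold, against 17.1% of all genes. These included the 4 globin genes, whose own share set that limit, each highest in the day 7 section. In the highest quartile alone 6 of 10 were past 2-fold, against 6.75% of all genes: the 4 globin genes, Tfrc at 4.91-fold and Hmox1 at 2.07-fold, but not Ftl1 at 1.56-fold or Slc40a1 at 1.92-fold. In the lowest quartile alone 8 of 10 were past 2-fold, against 38.9% of all genes. The 4 globin genes vary together (Pearson's r of Hba-a1 with Hba-a2 0.767, Hbb-bs 0.983 and Hbb-bt 0.994). Counts out of 10 therefore do not stand for 10 separate genes, as the percentages of all genes do not allow for. The 10 genes were also chosen with earlier results of these data known. An excess over the percentages of all genes therefore cannot be read as a trait of the group. Hmox1 in the highest quartile rests on 30 UMIs on day 4 and 10 on day 7.

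The globin genes did not pass the test between the lowest and highest quartiles. Summed, they held 0.330, 0.242, 0.582 and 1.195% of UMIs in the lowest quartile on days 1, 4, 7 and 14, 1.11, 0.783, 0.683 and 0.366% in the second, 0.261, 0.313, 0.650 and 0.296% in the third, and 0.133, 0.179, 0.509 and 0.491% in the highest. The second quartile was highest on days 1, 4 and 7 and the lowest quartile on day 14. Globin UMIs count in the total that ranks a spot, and the part of this in these values was not tested. Fitted log2 differences of the lowest over the highest quartile were 0.49 ± 0.50 for Hba-a1, 0.49 for Hba-a2, 0.34 for Hbb-bs and 0.54 for Hbb-bt. Adjusted p ran from 0.363 to 0.559 in edgeR. By its share of UMIs each gene was higher in 4 of 4 sections. The fit also scales by TMM factors, for the lowest and highest quartiles 1.38 and 0.884 on day 4 and 1.35 and 0.995 on day 7. So scaled, each globin gene was lower in the lowest quartile on days 4 and 7 and higher on days 1 and 14.

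These values moved with the choice of spots. When spots above 1% hemoglobin were left out before ranking, the 4 differences became -0.50, -0.24, -0.58 and -0.43, none past the threshold. That filter removes spots by the globin UMIs then compared, 56.1 to 77.8% of those of a section. These values therefore cannot show in which quartiles globin lies. When spots were ranked instead on 6 other cardiomyocyte genes (Actc1, Tnnt2, Tnni3, Pln, Ryr2 and Atp2a2), the 4 differences became 1.68, 1.57, 1.45 and 1.75. Adjusted p ran from 0.00333 to 0.0106 in edgeR. Globin UMIs count in the totals of that ranking too. Globin-rich spots made up 32.0 and 33.8% of the second quartile on days 1 and 4 and 35.1 and 33.3% of the lowest and highest quartiles on day 14.

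**Figure D5:**
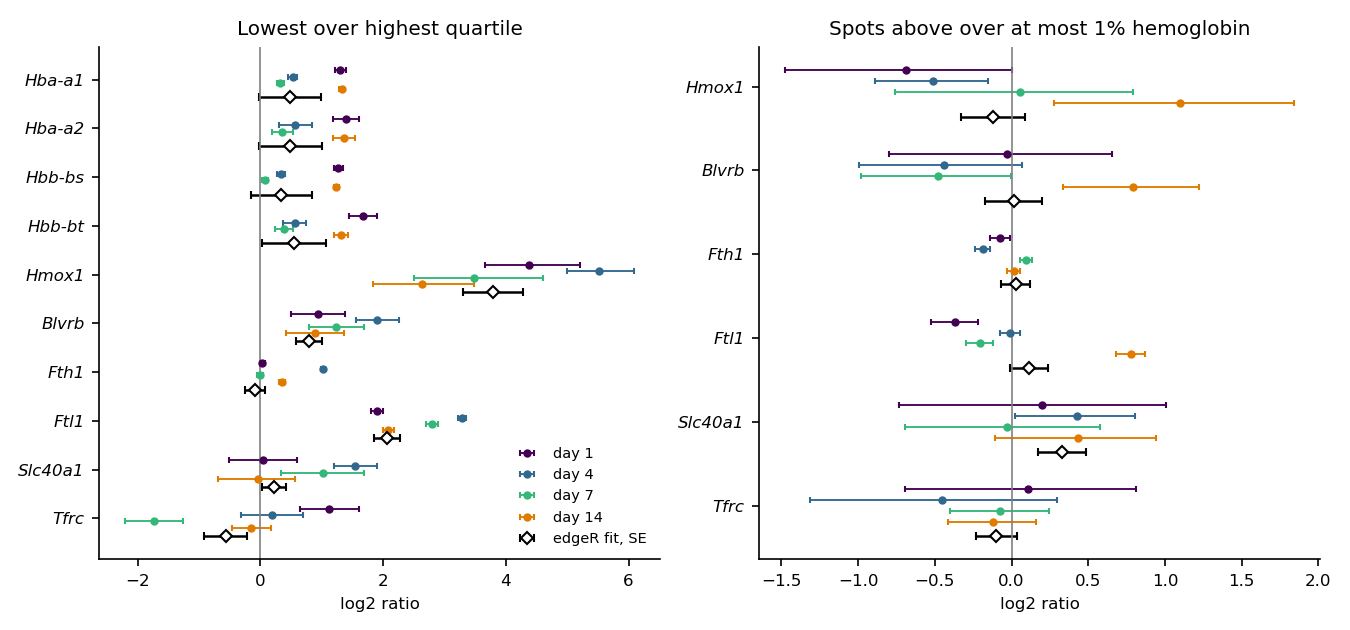
Log2 ratio of the lowest over the highest quartile (left, 10 genes) and of spots above over spots at most 1% hemoglobin (right, the 6 genes that are not globins) in each section, with 95% counting intervals as bars. Diamonds give the edgeR estimate with a standard error derived from the test's F statistic. The points use UMI totals, on the right without globin UMIs, and the diamonds use TMM factors. Hmox1, Blvrb and Ftl1 lie to the right of 0 in all 4 sections on the left, as do the points of the 4 globin genes. On the right, day 14 is the highest of the days for Hmox1, Blvrb and Ftl1. Its interval is clear of those of all other days for Ftl1 only.

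Marker genes of other cell types moved with the same quartiles. All 8 macrophage genes of the list (Cd68, Lyz2, C1qa, C1qb, C1qc, Csf1r, Adgre1 and Mrc1) were higher in the lowest than in the highest quartile, with a median log2 difference of 1.92, and none was at 0 in any quartile. Their summed level was 1134, 6402, 4823 and 2866 CPM in the lowest quartile on days 1, 4, 7 and 14, and 376 to 532 in the highest. The part of macrophage number in the differences of Hmox1, Blvrb and Ftl1 was not tested. Fibroblast genes (4 of 5 higher), neutrophil genes (2 of 2), smooth muscle genes (2 of 2) and resident macrophage genes (2 of 2) also differed between these quartiles.

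Set against the macrophage list, Hmox1 and Ftl1 differed. In the lowest quartile there were 88.9, 48.8, 7.60 and 9.99 Hmox1 UMIs per 1000 UMIs of the macrophage list on days 1, 4, 7 and 14. The same ratio for Ftl1 was 1227, 822, 532 and 514. Hmox1 per UMI of the macrophage list was thus higher on days 1 and 4 than on days 7 and 14 by a wider margin than Ftl1. Within the day 1 section the Hmox1 ratio was 88.9, 94.4, 22.3 and 12.1 from the lowest to the highest quartile, and on day 7 it was 7.60, 6.43, 5.70 and 6.46, nearly level. Blvrb went the other way, with 36.2, 12.3, 12.2 and 14.1 UMIs per 1000 macrophage list UMIs in the lowest quartile on days 1, 4, 7 and 14 and 53.9, 39.7, 49.1 and 57.7 in the highest. For Ftl1 the highest quartile stood at 937, 1015, 726 and 922, below the lowest quartile on day 1 and above it on days 4, 7 and 14. The ratio is a description, since the marker genes may themselves vary per cell. Lyz2 alone gave 4065 of 7845, 22468 of 32511, 10236 of 16535 and 6010 of 10462 list UMIs of the sections on days 1, 4, 7 and 14.

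Likeness of pattern was measured as Pearson's r of log2 levels over the 16 libraries, which share their sections in groups of 4, and is given as a description. The genes most like Hmox1 were Prg4, Pf4 and Ms4a6d (r = 0.983, 0.982 and 0.972), and those most like Ftl1 were Ctss, Tyrobp and Lgals3 (r = 0.996, 0.993 and 0.989). Blvrb was most like Mfsd1, Safb2 and Ctsa (r = 0.976, 0.976 and 0.975) and Fth1 was most like Ythdf3, Trappc1 and Prdx1 (r = 0.887, 0.884 and 0.874). Slc40a1, at most 0.833 (Ppt1), and Tfrc, at most 0.810 (Tspan3), had no gene as close. The summed globins had the loosest likeness, 0.727 with Steap4. Among themselves, Hba-a1 followed Hbb-bt (r = 0.994) and Hbb-bs (r = 0.983) and followed Hba-a2 less closely (r = 0.767).

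Spots rich in globin were then compared with the rest, to ask whether the heme and iron genes were higher where blood transcripts were. Levels are CPM over the UMIs that are not from globins, the globin genes having defined the classes, and edgeR's quasi-likelihood test used 8 libraries (4 sections by 2 classes) with the section as a block. None of the 6 heme and iron genes passed, and of all 5153 genes tested 3 did (0.0582%), Malat1, Mkrn1 and Vwf, all higher in the globin-rich spots. At an unadjusted p under 0.05 there were 220 of the 5153 genes, less than the share of 0.05 that this limit passes when no gene differs. DESeq2 called 7.

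Slc40a1 came nearest among the 6. It stood at 20.1, 52.5, 15.7 and 23.2 CPM in the globin-rich spots on days 1, 4, 7 and 14, and at 17.5, 39.1, 16.1 and 17.1 in the others, higher in 3 of 4 sections. The log2 difference was 0.33 ± 0.16, with unadjusted p = 0.0473 and adjusted p = 1.00 in edgeR.

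Hmox1 stood at 26.3, 55.9, 10.9 and 11.6 CPM in the globin-rich spots and at 42.4, 79.6, 10.5 and 5.42 in the others. It was lower on days 1 and 4, level on day 7 and higher on day 14. The values in the globin-rich spots rest on 17, 66, 18 and 18 UMIs. The log2 difference was -0.12 ± 0.21, adjusted p = 1.00 in edgeR. Ftl1 stood at 562, 1710, 768 and 697 in the rich spots and at 725, 1724, 887 and 407 in the others, with day 14 the only section in which the rich spots were higher. Its log2 difference was 0.11 ± 0.13.

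Blvrb stood at 27.9, 28.0, 24.8 and 32.9 CPM in the globin-rich spots and at 28.4, 37.9, 34.5 and 19.0 in the others. Day 14 was the only section with more in the rich spots, and the log2 difference was 0.01 ± 0.19. Fth1 stood at 3122, 2880, 3461 and 2931 against 3287, 3280, 3240 and 2904 (log2 0.03 ± 0.09), and Tfrc at 26.3, 12.7, 58.1 and 71.5 against 24.5, 17.4, 61.1 and 77.9 (log2 -0.10 ± 0.13). Standard errors of 0.09 to 0.21 leave room for differences of this order in either direction.

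The macrophage list was among the cell type lists that moved with the day 14 values. Its summed level in globin-rich spots was 529, 2263, 1378 and 1179 CPM on days 1, 4, 7 and 14, and 628, 2081, 1539 and 550 in the others, with all 8 genes present in both classes of every section, so that day 14 had the widest gap. Within the lowest quartile of day 14 the globin-rich spots had 4408 and the others 2585, while Hmox1 there was at 41.0 and 26.5 on 12 and 37 UMIs and Ftl1 at 1927 and 1399. Over all spots of day 14 the mesothelium list was at 111 CPM in the globin-rich spots and 14.5 in the others, on 173 and 227 UMIs. The fibroblast list stood there at 3090 against 1578. Of the cell type lists only the cardiomyocyte list was lower in the globin-rich spots of day 14, at 31181 against 33657. The part of macrophages, of other cell types, of depth and of the position of the spots in these differences was not tested.

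The spots nearest to the limit are given as a description. In the 25 spots just above 1% Ftl1 stood at 591, 1437, 537 and 506 CPM on days 1, 4, 7 and 14, and in the 25 spots just at or under it at 724, 1528, 524 and 458. Hmox1 ranged from 0 to 34.3 just above and from 0 to 38.5 just under the limit.

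Red cell genes are given beside these classes as a check on the blood content of the spots, as far as their counts reached. Alas2, the heme synthesis enzyme of red cell precursors, stood at 135, 73.7, 45.4 and 90.9 CPM in the globin-rich spots and at 1.93, 2.02, 6.69 and 4.14 in the others. Bpgm, the red cell enzyme that makes the hemoglobin ligand bisphosphoglycerate, stood at 41.8, 26.3, 21.2 and 23.2 against 7.71, 8.72, 11.4 and 10.1. Both were under the minimum of 1000 UMIs. With a minimum of 100 UMIs, Bpgm passed (log2 1.49 ± 0.22, adjusted p = 0.000436 in edgeR) and Alas2, whose fold ran from 6.78 on day 7 to 69.9 on day 1, did not (log2 4.55 ± 0.68, adjusted p = 0.525). Of the 11 red cell and erythroid genes listed, 1 reached the minimum of 1000 UMIs, Mkrn1, which encodes a ubiquitin ligase abundant in reticulocytes. Mkrn1 was higher in the globin-rich spots in 4 of 4 sections (log2 1.09 ± 0.17, adjusted p = 0.0154 in edgeR), a call lost without the day 1 section (adjusted p = 0.165) or without the day 4 section (adjusted p = 0.0939). It was also lost with library totals (adjusted p = 0.527), without the section block (adjusted p = 1.00) and at a limit of 0.5% (adjusted p = 0.0605).

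Other genes of heme and iron biology were taken from lists and compared between the lowest and highest quartiles in the same fit, where 35.8% of genes were higher, 33.0% lower and the median was 0.05. Of 12 heme synthesis genes 7 were tested, of which 6 were lower and Tspo higher, with a median log2 difference of -0.89. Alas1, the rate-limiting enzyme of heme synthesis outside red cells, stood at 93.2, 47.6, 56.7 and 113 CPM in the lowest quartile on days 1, 4, 7 and 14 and at 140, 90.1, 169 and 187 in the highest (log2 -1.38 ± 0.17, adjusted p = 2.22e-05 in edgeR). Abcb10, a mitochondrial transporter needed for heme synthesis, was lower by a log2 difference of -1.25 and Alad, the enzyme of its second step, by -1.14. Tspo, an outer mitochondrial membrane protein that binds porphyrins and is abundant in macrophages, was higher by 1.52.

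Iron-sulfur cluster genes and myoglobin were also lower where cardiomyocyte transcripts were few. All 5 tested of 7 iron-sulfur cluster assembly genes were lower, with a median of -0.86, among them Nfs1, the cysteine desulfurase (-1.20), and Glrx5, a mitochondrial glutaredoxin (-0.86). Mb, the heme protein that holds oxygen in muscle, stood at 6801, 1851, 3913 and 9501 CPM in the lowest quartile and at 17672, 13991, 16076 and 14755 in the highest (log2 -2.10 ± 0.36, adjusted p = 0.000185 in edgeR). Cygb, cytoglobin, was the other of the 2 globin relatives tested and was called higher, though not in all 4 sections. All 6 cardiomyocyte genes of the list that were not used for ranking were lower, with a median of -2.12.

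Of 13 genes listed for the uptake, breakdown and export of heme and hemoglobin 6 were tested, of which Hp, Lrp1 and Blvra were higher, none was lower and 3 did not pass, with a median of 0.52. The share higher, 3 of 6, stands beside 35.8% of all genes. Hp, haptoglobin, which binds free hemoglobin, stood at 119, 154, 209 and 74.2 CPM in the lowest quartile and at 2.42, 4.77, 2.63 and 2.92 in the highest (log2 4.94 ± 0.42, adjusted p = 4.43e-06 in edgeR). Lrp1, a receptor that takes up heme bound to hemopexin among many other ligands, was higher by 1.66 and Blvra, the main biliverdin reductase, by 0.64, each in 4 of 4 sections.

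Iron transport and control genes mostly did not pass. Of 14 iron uptake and transport genes 7 were tested and 2 were higher: Lcn2, which binds iron-carrying siderophores and is a neutrophil granule protein (log2 1.85 ± 0.44, adjusted p = 0.00240 in edgeR), and Slc39a14, a metal importer (0.59 ± 0.18). The call of Slc39a14 was lost with a minimum of 100 UMIs (0.38, adjusted p = 0.0924 in edgeR). Lcn2 stood at 165, 15.5, 3.33 and 16.4 CPM in the lowest quartile, far higher on day 1, and its call was lost without that section (1.43, adjusted p = 0.0679) and without the section block (2.11, adjusted p = 0.243). Of 10 genes of iron control and ferritin turnover 5 were tested and 1 was lower, Hjv, encoding hemojuvelin, a membrane protein of skeletal muscle, heart and liver that promotes hepcidin expression (-1.47 ± 0.20). None of these lists had a gene past the threshold between globin-rich and other spots except the red cell list, with Mkrn1.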

How the data were processed

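Hearts were sectioned and read with Visium at 4 time points after LAD ligation, 1 section from 1 mouse each. The authors deposited, per section, a matrix of raw UMI counts per gene and spot. The submitters' processing notes name Space Ranger 1.3.0, Seurat 4.1.1 and the mm10 build, and the deposited counts carry no normalization. All 9102 deposited spots were used here, 1599 of them above 1% hemoglobin. The study's methods also remove spots near the inner and outer tissue edges, and those spots were kept here. Counts were summed over the spots of a section, a quartile or a hemoglobin class and given as counts per 1000000 UMIs (CPM), with exact Poisson or Clopper-Pearson 95% intervals (scipy 1.17.1). Quartile libraries held 1689417 to 5640444 UMIs and hemoglobin class libraries 646100 to 15685279.

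Differences were tested with edgeR 4.0.16 (TMM factors, robust quasi-likelihood, Benjamini-Hochberg, threshold 0.05), with Myh6 and Myl2 left out of the quartile fit and the Hba-/Hbb- genes out of the class fit. Sections were the replicates. Standard errors were computed as the size of the log2 difference divided by the square root of the test's F statistic, since the test gives none. Counts of sections higher or lower use each library's total, not TMM factors. The fits were also run on simulated counts with a common spread for all genes and a small part of genes raised. That run did not probe the TMM scaling where most genes differ, as between the quartiles. DESeq2 1.42.0 and the other settings named below were alternatives.

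All 10 genes were named in every comparison, and from each other list up to 3 genes per direction, past the threshold and the same way in all 4 sections. A gene that this rule would name is not reported here. Malat1, Mkrn1 and Vwf were named as the whole of a short count, and Alas2, Bpgm and Cygb after their values were seen. The genes and lists were chosen with earlier results of these data known. Transcripts were from GENCODE vM21 (GRCm38) and promoters from RefSeq (GRCm38.p6), which held 8 of the 10 genes, without Hmox1 and Slc40a1. Ahsp and Tf were not found by symbol. No amino acid sequence was used here. Of the 11 marker lists of cell types, fat (1 higher and 1 lower of 2 tested), endothelial (1 and 1 of 4), platelet (1 higher of 1) and fast skeletal muscle genes (8 higher of 8) complete those given above for the quartiles, and no mesothelial gene was tested.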

Additional observations from a re-analysis of the deposited data

Results flagged for a closer look

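Each of these differences between days rests on 1 section per day, was seen because 1 section lay clearly above and another clearly below no difference, and was not tested as a difference. The log2 ratio of the lowest over the highest quartile for Tfrc was 1.118 on day 1 and -1.73 on day 7, 2.84 apart. The log2 ratio of spots above over spots at most 1% hemoglobin was 1.098 on day 14 and -0.51 on day 4 for Hmox1, 1.61 apart. For Blvrb it was 0.79 on day 14 and -0.48 on day 7, 1.27 apart. For Ftl1 it was 0.78 on day 14 and -0.37 on day 1, 1.14 apart, with day 7 also lower in the globin-rich spots. For Fth1 it was 0.10 on day 7 and -0.19 on day 4, 0.28 apart, with day 1 also lower. In 3 of these 5 the high section was day 14, whose globin-rich spots had a median depth of 1164 UMIs against 8310.5 in its other spots and a summed macrophage level of 1179 against 550 CPM. The mesothelium and fibroblast lists were also higher in those spots, at 111 against 14.5 and 3090 against 1578 CPM. The part of depth, of macrophages, of other cell types and of spots near the tissue edges in these differences was not tested.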

How the results depend on the processing

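The calls of Hmox1, Blvrb and Ftl1 between the lowest and highest quartiles held under all 15 alternatives, with log2 differences of 3.16 to 4.22, 0.64 to 0.88 and 1.90 to 2.21 when a section was left out. Over all genes, 2877 were higher and 1028 lower with library totals, and 3400 and 3092 with a minimum of 100 UMIs, against 1846 and 1701. Of the 10 genes, 0 to 1 were lower without a section (Tfrc without day 1). Ranking on 6 other cardiomyocyte genes gave 7 higher, the 4 globin genes among them, and 1 lower (Tfrc, -0.96), against 37.9 and 33.3% of all genes. Globin UMIs count in the totals of that ranking too. Fth1 became 0.35 with library totals, and leaving out a section gave -0.24 to 0.051 for Fth1 (0.051 without day 7) and -0.055 to 0.41 for Slc40a1 (-0.055 without day 4). Without spots above 1% hemoglobin, Hba-a1, Hba-a2, Hbb-bs and Hbb-bt became -0.50, -0.24, -0.58 and -0.43, and also without spots under 1000 UMIs, an alternative chosen after seeing the data, -0.52, -0.33, -0.59 and -0.42. Leaving out spots above 1% removes them by the globin UMIs then compared, so these globin values cannot show where globin lies. The cause of the changes in this paragraph was not tested.

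Between globin-rich and other spots, none of the 6 genes passed under any alternative. Over all genes, DESeq2 called 7 higher, library totals, no section block and a limit of 0.5% 0, a minimum of 100 UMIs 33, quartile as a further block 14, and that block with 100 UMIs (chosen after seeing the data) 53 higher and 67 lower. Leaving out a section gave 1 to 16 higher and 0 to 15 lower, the most without day 14. Signs of small differences turned. Leaving out a section gave -0.28 to 0.18 for Blvrb (below 0 without day 1 or day 14), -0.029 to 0.088 for Fth1 (below 0 without day 1 or day 7), -0.35 to 0.18 for Hmox1 (above 0 without day 4) and -0.075 to 0.20 for Ftl1 (below 0 without day 14). Blvrb turned to -0.029 with library totals, -0.076 at a limit of 0.5%, -0.022 with the quartile block, -0.055 without spots under 1000 UMIs and -0.12 with the block and 100 UMIs. Fth1 turned to -0.038 with library totals, -0.0038 with the block and -0.14 with the block and 100 UMIs. Hmox1 turned to 0.0032 at a limit of 2%, Ftl1 to -0.020 and Tfrc to 0.030 at 0.5%.

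Over the days, 8 of 10 genes were past 2-fold in spots at most 1% hemoglobin (17.1% of all genes) and in the lowest quartile alone (38.9%), the latter chosen after seeing the data, and 5 or 6 otherwise (6.75 to 16.6%). The 4 globin genes, which vary together, enter each of these counts separately. The genes were chosen with earlier results of these data known, which the percentages of all genes do not allow for. The quartile and class tests were paired within section. Sections of different days could not be paired with each other, since each came from a different mouse. Depth limits Hmox1 in the highest quartiles, Blvrb and Slc40a1, which rest on few UMIs.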
